A study of Mus musculus with 16 samples.

Results

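Mitochondrial ribosomal protein genes were followed across the cell classes of the mouse prefrontal cortex in single-nucleus RNA-seq. Members were all genes whose symbol is Mrpl or Mrps followed by a digit, pseudogenes left out, which gave 78 of the 19999 genes in the count table. The study had 4 groups of 4 male mice aged 22 weeks. WT controls came from the B6;129 stock and received pyrazole and air. WT/alcohol mice went through chronic intermittent ethanol vapor, with ethanol and pyrazole injections. The 3xTg-AD mice, whose alleles include mutant human APP and tau transgenes under the neuronal Thy1 promoter, were likewise kept in air with pyrazole (called 3xTg-AD/air mice below) or exposed to alcohol (3xTg-AD/alcohol mice). Pyrazole was therefore common to all 16 mice, and the 3xTg-AD alleles and the stock in which they are kept cannot be told apart from each other here.

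The mitochondrial ribosome makes the few proteins that mitochondrial DNA encodes, all of them subunits of the respiratory chain or of ATP synthase. Its RNAs are transcribed in the mitochondrion, whereas each of its proteins is encoded in the nucleus, made in the cytosol and imported. Some of these proteins descend from bacterial ribosomal proteins, while others were gained in the mitochondrial lineage. Neurons depend on this machinery for the respiration that sustains firing and synaptic transmission.

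Of the 78 genes, 51 encode large subunit proteins and 26 small subunit proteins. The remaining gene, Mrps36, is now known as a subunit of the oxoglutarate dehydrogenase complex. In the grouping used here, 45 of the proteins were counted as having a bacterial counterpart and 32 as having none. The genes lie on 17 chromosomes, and 36 of them overlap an annotated gene on the other strand and 13 one on the same strand. Together they held 796486 of 216742276 UMIs (unique molecular identifiers, 1 per captured RNA molecule), or 0.367%. At least 1 UMI of the family was found in 99.2% of the 114512 nuclei, with a mean of 6.96 per nucleus. Single genes were sparse, since each was detected in only 1.66 to 22.5% of nuclei (median 7.34%). Mrpl41, a large subunit protein gained in the mitochondrial lineage, gave the most UMIs (32264, 4.05% of the family), followed by Mrps26, Mrps5, Mrps17 and Mrps14 with 2.85 to 3.85% each. These shares tell which genes carry the summed level, and are not used here to compare levels between genes.

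Promoters were examined because the RNAs of a few members differed between genotypes (below). RefSeq windows of 300 bases on GRCm38.p6, running from 250 bases before to 50 bases after the transcription start, were matched for 69 of the 78 genes. A letter match on either strand to the GABPA motif CCGGAAG stood in 36.2% of the 69 windows and in 9.12% of all 27025 windows. The NRF1 motif, GCGC, 1 base of any kind and TGCGC, was found in 18.8% of the family's windows against 4.78% of all, and the YY1 motif AAGATGGCG in 11.6% against 1.49%. The CCAAT box bound by NF-Y stood in 39.1% of the family's windows and 37.9% of all windows, and TATAAA was found in 5.8% against 14.2%. GABPA, NRF1 and YY1 are known regulators of nuclear genes of mitochondrial proteins, and a letter match is a description, not a binding site. The stretches upstream of the 3 genes that differed most often between genotypes are shown 5′ to 3′ on the gene's strand, without annotated exons and with CCAAT boxes in capitals. The stretch of Mrpl33 is chr5:31613701-31613938 on the plus strand and ends 12 bases before the RefSeq start. That of Mrps12 is chr7:28741822-28741967 on the minus strand and lies between Mrps12 and Sars2, which is transcribed the other way. That of Mrpl55 is chr11:59202432-59202485 on the plus strand.
Mrpl33: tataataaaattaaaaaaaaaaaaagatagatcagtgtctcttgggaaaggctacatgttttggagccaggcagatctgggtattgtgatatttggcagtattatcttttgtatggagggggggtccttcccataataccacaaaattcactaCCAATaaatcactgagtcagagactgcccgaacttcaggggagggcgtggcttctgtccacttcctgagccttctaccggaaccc
Mrps12: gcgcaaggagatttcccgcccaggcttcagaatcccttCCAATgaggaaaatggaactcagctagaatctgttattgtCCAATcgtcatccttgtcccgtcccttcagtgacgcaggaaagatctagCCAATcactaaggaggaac
Mrpl55: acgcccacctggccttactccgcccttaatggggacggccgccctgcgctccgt
Mrpl33 thus had 1 CCAAT box, Mrps12 had 3, and the short stretch of Mrpl55 had none on its own strand. The full windows of Mrpl33 and Mrps12 also held a GABPA match, which is not within the stretches shown.

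Depth ranged from 9622031 to 17544364 UMIs and from 4955 to 9096 nuclei per mouse, with medians of 1313 to 2175 UMIs per nucleus. The mice labelled control 26, control 27 and 3xTg-AD/air 12 stood apart, with 29046, 19430 and 17914 UMIs of Gm42418 per 1000000 UMIs (CPM), a transcript that overlaps ribosomal RNA, against at most 4249 in the others. Calls of members that were lost when these 3 mice were left out are named below, whereas calls of other genes are given without that check. Of 112806 different barcodes, 1694 occurred in more than 1 mouse. Nuclei were clustered without the 78 genes. Glutamatergic and GABAergic clusters were named from Slc17a7 and Gad1 alone, and other classes and the subclasses from marker sets. Each class name below stands for nuclei like that type, apart from the Meis2-like cluster described below. Every named class had its own marker set higher than any other named class did. The vascular leptomeningeal class nevertheless held 6219 CPM of astrocyte markers, more than the 3765 of its own, while astrocytes held 12678. No class name could be given to 38161 nuclei (33.3%; 19.9 to 44.2% per mouse), whose median was 847 UMIs and which entered tests only in the sum of all nuclei. They held markers of several types, with 1760 CPM of glutamatergic, 3139 of astrocyte, 773 of oligodendrocyte and 501 of GABAergic markers, against 1609, 663, 180 and 90 in glutamatergic neurons, and their mitochondrially encoded RNAs were at 23862 CPM against 5154. The sum of all nuclei also held a GABAergic cluster of 1237 nuclei, of which 964 came from control 27 (19.4% of its nuclei) and at most 95 from any other mouse. It is called Meis2-like below, a name given because most of its nuclei came from 1 mouse and not from a score of Meis2 markers. Free RNA was not corrected for, and Slc17a7, a glutamatergic transporter gene, was at 356 to 492 CPM in glial and endothelial classes and at 715 in glutamatergic neurons.

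The summed level of the family was lowest in glutamatergic neurons and highest in microglia, among the 6 classes plotted by group, in each of the 4 groups. In WT controls it was 2926 ± 244 UMIs per 1000000 UMIs of the class (CPM; SD, n = 4) in glutamatergic neurons, 3435 in astrocytes, 3511 in GABAergic neurons, 3659 in oligodendrocytes, 3721 in oligodendrocyte precursors and 3955 ± 447 in microglia. Relative to the glutamatergic level of the same mouse, the mean ratio was 1.18 in GABAergic neurons, 1.19 in astrocytes, 1.27 in oligodendrocytes, 1.28 in precursors, 1.41 in endothelial cells and 1.43 in microglia, and each of these was above 1 in 16 of 16 mice. The neighbouring pairs in that order (GABAergic neurons and astrocytes, oligodendrocytes and precursors, endothelial cells and microglia) lay within the spread of the mice. Among glutamatergic subclasses, L5/6 near-projecting neurons stood highest (1.20, 16 of 16 mice), while L5 IT neurons (0.955, above 1 in 1 mouse) and L2/3 IT neurons (0.986, above 1 in 2 mice) were at or below the mean of the class. Lamp5, Vip, Pvalb and Sst interneurons were all above the glutamatergic level in 16 of 16 mice, at 1.27, 1.23, 1.20 and 1.12. Sncg interneurons, at 1.09, were above it in 13 of 16 mice.

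**Figure D1:**
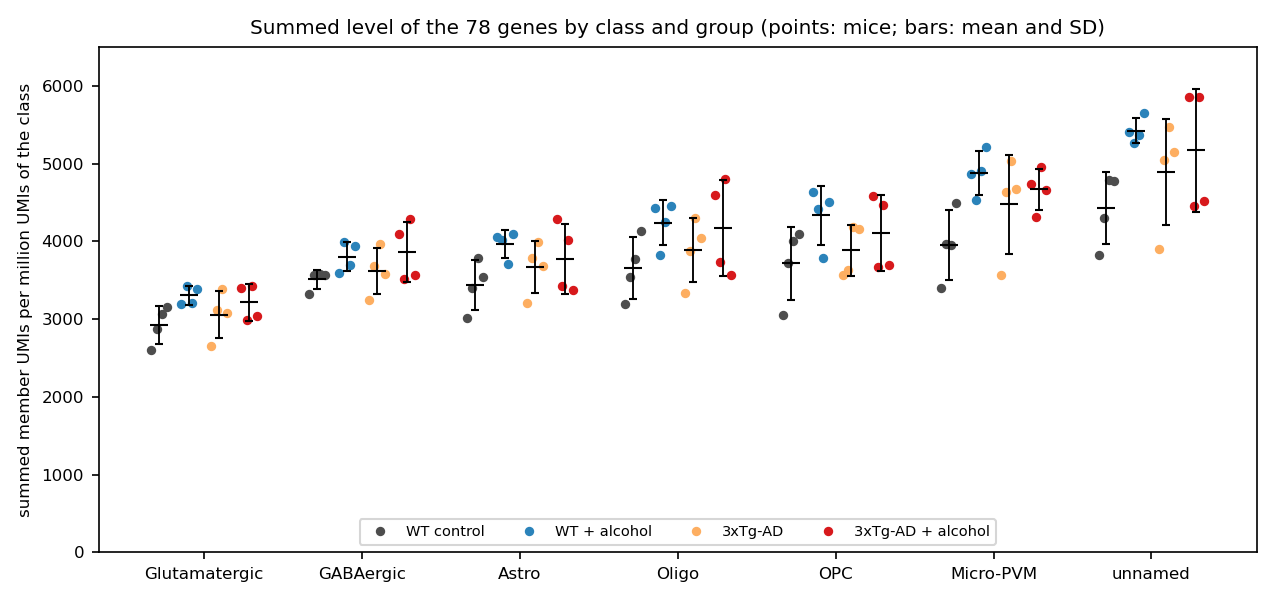
CPM of the 78 genes, summed (y axis, from 0), for each class and group; points are mice, lines are the mean and SD of 4 mice. Glutamatergic neurons sit lowest in every group. In glutamatergic neurons, GABAergic neurons, microglia and the nuclei without a class (unnamed) the 4 WT/alcohol mice sit above the 4 WT controls. In astrocytes, oligodendrocytes and precursors these groups overlap.

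The classes differed in depth broadly in the opposite order, with a median of 2471 UMIs per nucleus in glutamatergic neurons, 1820 in GABAergic neurons, 1204 in astrocytes, 1032 in precursors, 888 in oligodendrocytes and 786 in microglia, although endothelial cells, at 1205.5, did not follow it. Within glutamatergic neurons, too, the shallowest tertile of nuclei (median 1823.5 UMIs) held 3664 ± 338 CPM of the family (SD, n = 16 mice), the middle tertile 3219 ± 274, and the deepest tertile (median 3849 UMIs) 2834 ± 222. The shallow tertile was above the deep tertile in 16 of 16 mice in each of the 6 largest named classes. At like depth the order of classes was not the same. The deepest tertile of astrocytes (median 1731 UMIs) was at 3368 ± 310, below the shallow glutamatergic tertile in 16 of 16 mice. The middle tertile of GABAergic neurons (median 1858 UMIs) was at 3831 ± 326, above it in 12 of 16 mice. The shallow tertile of GABAergic neurons (median 1322.75 UMIs) was at 4112 ± 364. The deepest tertile of precursors (median 1393.5 UMIs), at 3617 ± 422, was above that GABAergic tertile in only 1 of 16 mice. The deepest tertile of microglia (median 1070.5 UMIs) was at 3989 ± 524, above the deepest tertile of oligodendrocytes (median 1201 UMIs, 3530 ± 478) in 15 of 16 mice, but it was also the shallower of these, and the middle tertile of oligodendrocytes (median 870 UMIs) was at 4228 ± 480. The deepest tertile of microglia was above that of precursors in 12 of 16 mice, again as the shallower. Of the 78 genes, 74 were higher in the shallow than in the deep glutamatergic tertile, with a median log2 ratio of 0.43 (range -0.06 to 0.80). Mrpl27, at 0.80, and Mrps33, at 0.64, moved far with depth, whereas Mrps5 and Mrps17, at 0.03 each, hardly did, and Mrpl1, Mrpl3, Mrps9 and Mrps10 were lower in the shallow tertile.

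**Figure D2:**
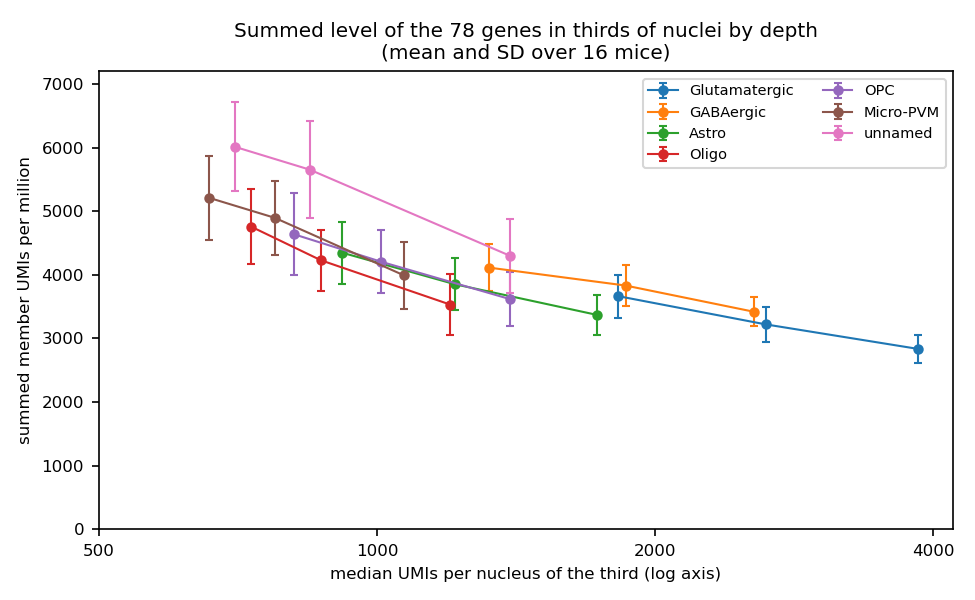
Summed level of the family in CPM (y axis) against the median UMIs per nucleus (x axis, log scale) in the shallow, middle and deep tertile of nuclei of each class; points are means and bars SD over 16 mice. Every class falls from left to right, glutamatergic neurons from 3664 to 2834.

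Gene by gene, the family did not move as a block between classes. Each class was compared with glutamatergic neurons of the same mice by edgeR's quasi-likelihood test with the mouse as a block, in which 67 of the 78 genes passed the filter on low counts and a call is a Benjamini-Hochberg adjusted p of at most 0.05 over 8366 genes. In astrocytes 44 genes were higher and 10 lower, where 42.0% of all genes were called higher. In microglia 44 were higher and 10 lower (37.4% of all genes higher), and in oligodendrocytes 43 and 9 (35.6%). In endothelial cells 36 were higher and 9 lower (31.2%), in GABAergic neurons 36 and 7 (38.2%), and in oligodendrocyte precursors 28 and 7 (32.99%). With classes from marker counts, where 55 members passed the filter, 13 were higher in GABAergic neurons, then a smaller share than that of all genes (28.4%), 16 in precursors (24.9%) and 13 in endothelial cells (21.4%). The share of all genes called in either direction was 82.6% in astrocytes, 75.1% in microglia, 72.3% in oligodendrocytes, 70.0% in endothelial cells, 68.9% in GABAergic neurons and 65.2% in precursors. The median log2 difference of the 67 genes exceeded that of all genes by 0.11 in GABAergic neurons, 0.23 in precursors, 0.31 in astrocytes, 0.42 in oligodendrocytes, 0.45 in microglia and 0.58 in endothelial cells. The endothelial class also held 9681 CPM of Hbb-bs, a globin of red cells, against 105 in glutamatergic neurons, and its part in the difference was not tested. Scaling by library size alone, an alternative chosen after seeing the data, moved the median of all genes by 0.03 to 0.29, and that of the family with it.

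Higher members came from both subunits. Mrpl18, a large subunit protein that binds 5S rRNA in bacteria, had the largest difference in astrocytes (log2 1.34, SE 0.07, adjusted p = 1.7e-47, edgeR). Mrpl52, a large subunit protein without a bacterial counterpart, was higher by 1.12 in oligodendrocyte precursors, by 1.05 in microglia and by 0.66 in GABAergic neurons. Mrps33, of the small subunit, was higher by 0.96 in both oligodendrocytes and microglia and by 0.88 in astrocytes. Of the 67 genes, 22 were higher in all 6 classes (32.8%, against 13.1% of all genes), and with library size alone these 22 were among 34 (20.5% of all genes). Of all genes 11.9% were lower in all 6. Mrps11 and Mrpl17 were raised most in GABAergic neurons after Mrpl52, at 0.63 and 0.53, but Mrps11 passed the test in no other class. All 6 classes were shallower than glutamatergic neurons, so class and depth cannot be told apart in these differences. Between the shallow and deep glutamatergic tertiles the log2 ratios were 0.49 for Mrpl18, 0.53 for Mrpl52 and 0.64 for Mrps33. They were 0.28 for Mrps11 and 0.36 for Mrpl17.

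Lower members were few. Mrpl41, the gene with the most UMIs, was lower in all 6 classes under both scalings, from -0.43 (GABAergic neurons) to -0.99 (oligodendrocyte precursors) on the log2 scale with TMM scaling. Mrpl3, a large subunit protein that reaches toward the catalytic center in bacteria, was at -0.35 to -0.70 and Mrps17, an rRNA-binding small subunit protein, at -0.18 to -0.63 in the 6 classes, though with library size alone neither passed the test in all of them. Mrps5, a small subunit protein important for decoding accuracy, went both ways. It was lower in endothelial cells (log2 -1.07), microglia (-0.90) and oligodendrocytes (-0.82) and higher in GABAergic neurons (0.34), and was at 0.00 in astrocytes (SE 0.05). The log2 ratios between the shallow and deep glutamatergic tertiles were 0.28 for Mrpl41, -0.01 for Mrpl3 and 0.03 for both Mrps17 and Mrps5. The part of depth in these class differences was not tested.

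**Figure D3:**
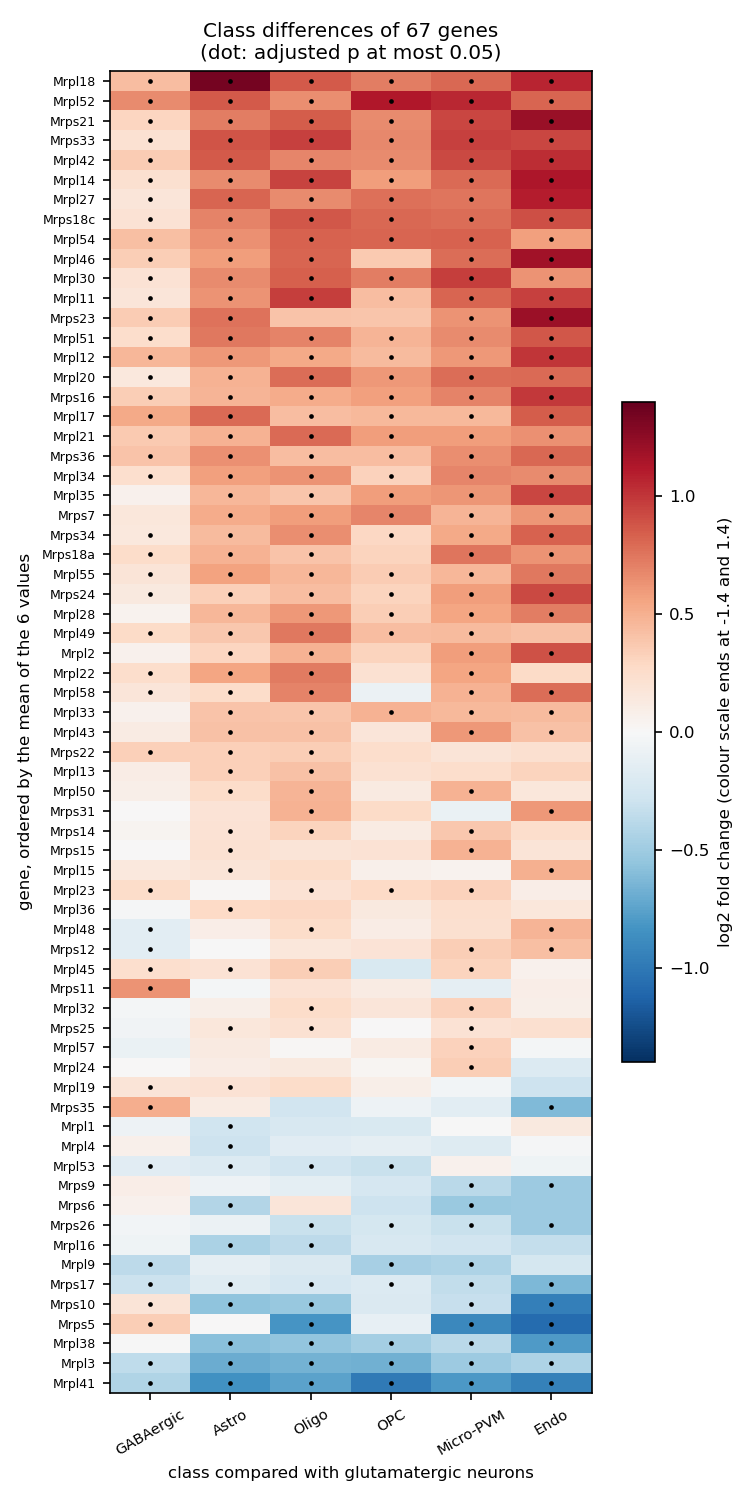
Log2 difference from glutamatergic neurons (colour, ends at -1.4 and 1.4) for 67 genes (rows, ordered by their mean) in 6 classes (columns); dots mark an adjusted p of at most 0.05. The rows at the top are red in all columns, and Mrpl3 and Mrpl41 at the bottom are blue in all 6.

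Between genotypes the median of the family lay near 0, and 4 members passed the test in at least 1 class. The share of member tests that passed was close to the share of the tests of all genes. For 3xTg-AD against WT mice, both treatments averaged, counts summed per mouse were tested in 21 classes and subclasses. These share nuclei, since they include the sum of all nuclei and the neuronal classes beside their subclasses. Of 1074 tests of members 16 passed, that is 1.49%, against 1.43% of the tests of all genes. The count fell to 7 without 3xTg-AD/air mouse 13 and to 8 without 3xTg-AD/air mouse 21, in both cases with Mrps5 no longer called, and to 10 without WT control 26. The shares of all genes called without these mice are not given here. In the sum of all nuclei, where 3.28% of all genes were called, 2 of 78 members were called, 48 lay above 0 and their median was 0.02. In glutamatergic neurons (3.08% of all genes called) 3 of 78 were called and 53 lay above 0, with a median of 0.04. The large and small subunits had medians of 0.02 and 0.01 in all nuclei. In all nuclei Mrpl55 was just outside the threshold (0.42, adjusted p = 0.052) and was called under 10 of 27 alternatives, with 0.36 to 0.49 and adjusted p values of 0.0097 to 0.10 over all of them. Without the Meis2-like nuclei, an alternative chosen after seeing the data, it was at 0.44 (adjusted p = 0.038). The members called were Mrpl33 and Mrps12, both lower in 3xTg-AD mice, and Mrpl55 and Mrps5, both higher. In the sum of all nuclei fewer nuclei of a type and less RNA per nucleus cannot be told apart.

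**Figure D4:**
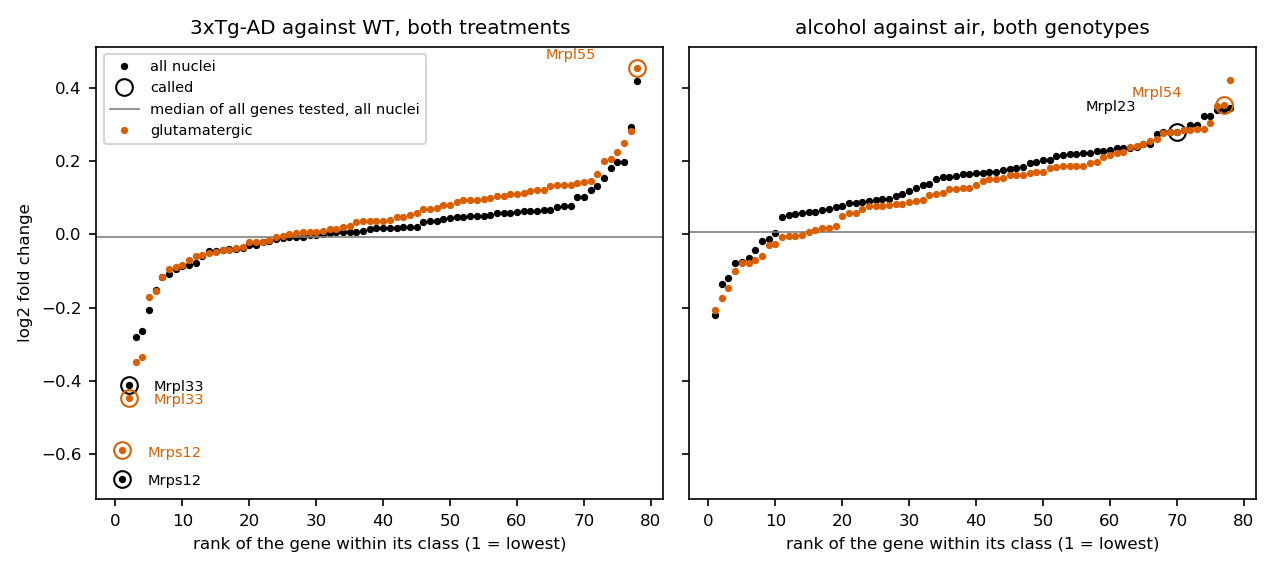
Log2 fold change (y axis) of the 78 genes, ranked from lowest to highest (x axis), for genotype (left) and alcohol (right) in all nuclei (black) and glutamatergic neurons (orange); called genes are circled and named, and the grey line is the median of all genes in all nuclei. The genotype ranks centre on the line apart from a few genes, whereas 69 of 78 alcohol values in all nuclei lie above 0.

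Mrpl33, a large subunit protein near the site where tRNAs leave the ribosome, was lower in 3xTg-AD mice, in neurons of both transmitter classes. In glutamatergic neurons WT controls 26, 27, 28 and 36 had 103.3, 89.2, 62.1 and 82.8 scaled CPM (CPM after TMM scaling within the class), and WT/alcohol mice (6, 7, 17 and 18) had 66.0, 71.7, 75.5 and 76.6. 3xTg-AD/air mice (12, 13, 14 and 21) had 64.3, 59.2, 62.2 and 54.0, and 3xTg-AD/alcohol mice (4, 31, 33 and 34) had 62.9, 49.1, 58.5 and 48.9. Apart from control 28, every WT mouse was above every 3xTg-AD mouse. In GABAergic neurons the 8 WT mice had 74.7 to 124.5 (median 90.8) and the 8 of both 3xTg-AD groups 49.2 to 82.9 (median 64.5). The genotype difference was -0.45 (log2, SE 0.09, adjusted p = 0.010, edgeR) in glutamatergic neurons, -0.54 (SE 0.11, adjusted p = 0.0054) in GABAergic neurons, where 1.79% of all genes were called, and -0.41 (SE 0.08, adjusted p = 0.010) in all nuclei. In glutamatergic and GABAergic neurons it passed the test in all 25 alternatives, with highest adjusted p values of 0.039 and 0.031, and in all nuclei it was lost when controls 26 and 27 and 3xTg-AD/air 12 were left out together (-0.35, adjusted p = 0.061). It was also called in L2/3 IT neurons (-0.42, 2.48% of all genes called), L6 CT neurons (-0.51, 1.12%) and L6b neurons (-1.06, 0.523%), whose calls were lost under 6 to 16 alternatives each. The L6b test rested on 14 mice, with 3 WT controls (26, 27 and 36) and 3 3xTg-AD/air mice (12, 13 and 21, the last with 10 nuclei). There the 3 mice high in Gm42418 could not be left out together, since control 36 alone would remain among the WT controls. Without the 3 mice high in Gm42418 the L2/3 IT value was -0.26 (adjusted p = 0.29) and the L6 CT value -0.38 (adjusted p = 0.25). In astrocytes the difference was -0.26 (adjusted p = 0.42), in microglia -0.33 (0.57), in precursors -0.48 (0.43) and in oligodendrocytes -0.24 (0.89), and whether it differed between neurons and glia was not tested.

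For 3xTg-AD/alcohol mice versus WT controls, Mrpl33 gave 7 of the 8 calls among 1074 member tests (0.745%, against 1.65% of the tests of all genes). Without 3xTg-AD/alcohol mouse 31 it gave 2 of 11 calls, 9 of which were higher, without mouse 34 of that group 1 of 3, and with DESeq2 5 of 12, 7 of which were higher. Without mouse 33 of that group or WT control 27 it gave 4 of 5 calls, and without 3xTg-AD/air mouse 12 it gave 9 of 12. Without WT control 26 it gave 3 of 6 calls, and the other 3 were higher. Shares of all genes called under these alternatives are not given here. Mrpl33 fell by 0.62 in glutamatergic neurons (SE 0.13, adjusted p = 0.013, 3.54% of all genes called), by 0.76 in GABAergic neurons (SE 0.16, adjusted p = 0.0073, 1.88%) and by 0.55 in all nuclei (SE 0.12, adjusted p = 0.016, 4.06%). These 3 calls were lost without the 3 mice high in Gm42418 (-0.40, -0.53 and -0.45) and with Gm42418 as a covariate (-0.36, -0.44 and -0.46), and the glutamatergic call also without 3xTg-AD/alcohol mouse 34, and that in all nuclei also without mouse 31 or 34 of that group. The other 4 calls were in L2/3 IT neurons (-0.60, 2.76% of all genes called), L6 CT neurons (-0.70, 1.26%), Pvalb neurons (-0.89, 1.16%) and Sst neurons (-0.95, 0.733%), and each was lost under 9 to 16 alternatives, leaving out the 3 mice among them (-0.28, -0.37, -0.67 and -0.59). For 3xTg-AD/air mice versus WT controls, Mrpl33 was at -0.49 in glutamatergic neurons (adjusted p = 0.13), and for WT/alcohol mice versus WT controls at -0.22 (adjusted p = 0.51). These comparisons share the WT controls. The interaction of genotype and alcohol was 0.09 (adjusted p = 0.98). The Mrpl33 locus (chr5:31596935-31664384, plus strand) overlaps Rbks on the other strand and Gm43809 on its own, so reads from the shared part of Gm43809 could not be assigned with certainty.

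Mrps12, a small subunit protein of the decoding center, was lower in 3xTg-AD mice in neurons, astrocytes and oligodendrocyte precursors. In all nuclei WT controls had 60.1, 63.8, 29.2 and 58.4 scaled CPM and WT/alcohol mice 51.4, 54.7, 61.0 and 81.9, in the order of mice given above. 3xTg-AD/air mice had 33.3, 27.8, 35.3 and 29.1, and 3xTg-AD/alcohol mice 49.8, 33.4, 47.9 and 35.4. Control 28 lay within the 3xTg-AD values, and the other 7 WT mice were above all 8 of them. The genotype difference was -0.67 in all nuclei (SE 0.15, adjusted p = 0.016, edgeR), kept under 26 of 27 alternatives and lost without the 3 mice high in Gm42418 (-0.55, adjusted p = 0.11). It was -0.76 in astrocytes (SE 0.19, adjusted p = 0.028, where 0.822% of all genes were called) and -1.24 in oligodendrocyte precursors (SE 0.28, adjusted p = 0.013, 0.42%), where 3xTg-AD/air mouse 14 had no UMI. Smaller differences were called in L6 CT neurons (-0.72), GABAergic neurons (-0.61) and glutamatergic neurons (-0.59, adjusted p = 0.040). The glutamatergic call was close to the threshold. Leaving out any 1 of 13 mice (all but WT/alcohol 6, 3xTg-AD/air 12 and control 28) raised the adjusted p above 0.05, while the difference stayed between -0.50 and -0.69. The calls in astrocytes, GABAergic neurons and L6 CT neurons were lost under 14, 11 and 7 of 25 alternatives. Without the 3 mice high in Gm42418 none of these 4 calls was kept, with differences of -0.67 in astrocytes (adjusted p = 0.16), -0.54 in GABAergic neurons (0.14), -0.69 in L6 CT neurons (0.079) and -0.45 in glutamatergic neurons (0.18). In oligodendrocytes the value was -0.91 (adjusted p = 0.089) and in microglia -0.72 (adjusted p = 0.10). The call in precursors was lost with DESeq2 and without 3xTg-AD/air 14, control 27 or control 36. The gene lies at chr7:28739641-28741820 on the minus strand, and its divergent neighbour Sars2, the mitochondrial seryl-tRNA synthetase, was higher by 0.38 in glutamatergic neurons of 3xTg-AD mice (SE 0.10, adjusted p = 0.037).

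Mrpl55, a large subunit protein, was higher in 3xTg-AD mice. In glutamatergic neurons WT controls had 16.97, 18.4, 18.3 and 18.6 scaled CPM and WT/alcohol mice 19.4, 23.0, 15.3 and 17.1. 3xTg-AD/air mice had 21.8, 22.4, 24.8 and 22.3, and 3xTg-AD/alcohol mice 32.0, 26.2, 29.7 and 22.8. Only WT/alcohol mouse 7 reached the 3xTg-AD values. The genotype difference was 0.46 in glutamatergic neurons (SE 0.09, adjusted p = 0.0084, edgeR), 0.70 in GABAergic neurons (SE 0.15, adjusted p = 0.0050) and 0.88 in Pvalb neurons (SE 0.23, adjusted p = 0.037, 1.06% of all genes called). The first 2 of these were lost only when classes were drawn from marker counts (adjusted p = 0.059 and 0.32), and the call in Pvalb neurons under 12 of 24 alternatives, one of them without the 3 mice high in Gm42418 (0.90, adjusted p = 0.063). In Pvalb neurons the 3xTg-AD/air mice lay between 42.0 and 53.7, above the 8 WT mice (at most 25.2), and the 3xTg-AD/alcohol mice lay between 20.6 and 43.6. In glutamatergic neurons Mrpl55 was also higher in 3xTg-AD/alcohol mice than in WT controls (0.62, SE 0.13, adjusted p = 0.013) and than in WT/alcohol mice (0.57, SE 0.13, adjusted p = 0.036, where 0.882% of all genes were called). The call against WT controls was lost with library size alone (0.61), with the Gm42418 covariate (0.52) and without the 3 mice high in Gm42418 (0.59), with adjusted p values of 0.053 to 0.055. The difference from WT/alcohol mice was the only one of 1074 member tests called in that comparison (0.0931%, against 0.509% of the tests of all genes). It was lost when any 1 of 7 mice was left out (4, 31 and 33 among 3xTg-AD/alcohol mice, 6, 17 and 18 among WT/alcohol mice, and 3xTg-AD/air 13). The gene lies at chr11:59202486-59206134 on the plus strand.

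Mrps5 was higher in astrocytes of 3xTg-AD mice, in which it was at 109.9 to 194.8 scaled CPM (median 165.0, n = 8) against 96.3 to 136.7 (median 113.2) in WT mice. The difference was 0.47 (log2, SE 0.12, adjusted p = 0.024, edgeR), and the groups overlapped, with 3xTg-AD/air mice 12 and 14 and 3xTg-AD/alcohol mouse 34 below the highest WT control. The call was lost with classes from marker counts (0.36, adjusted p = 0.071) and without mouse 4 or 31 of the 3xTg-AD/alcohol mice, 3xTg-AD/air 13 or 21, control 28 or 36, or WT/alcohol mouse 7.

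**Figure D5:**
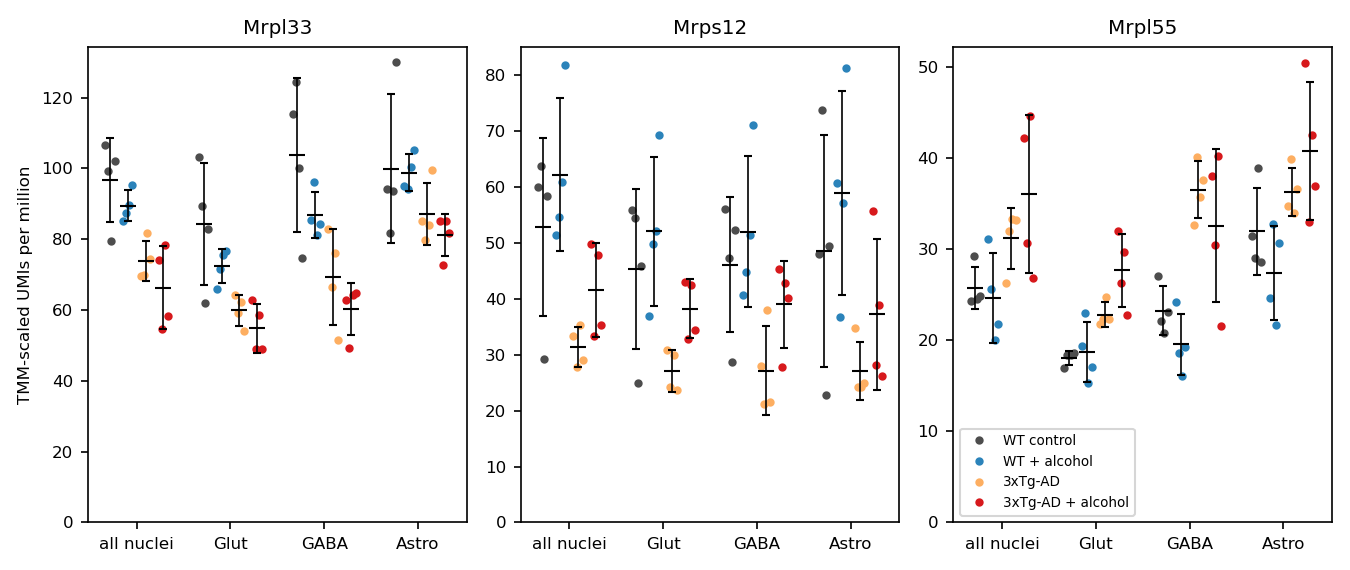
Scaled CPM (y axis) of Mrpl33, Mrps12 and Mrpl55 in each mouse, by group, in all nuclei, glutamatergic neurons, GABAergic neurons and astrocytes; points are mice and lines are group means with SD (n = 4). In neurons Mrpl33 sits lower and Mrpl55 higher in both 3xTg-AD groups, and control 28 is a low point of Mrps12.

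With alcohol, most members had small values above 0, and few passed the test, though how many depended on the setting. For mice exposed to alcohol against mice in air, both genotypes averaged, 69 of 78 members lay above 0 in all nuclei, with a median log2 fold change of 0.17 against 0.01 for all genes, and 64 of 78 in glutamatergic neurons, with a median of 0.13. An unadjusted p under 0.05 was reached by 28 members in all nuclei (35.9%, 27 of them higher) and by 20.9% of all genes. After adjustment 4 of 1074 member tests were called over the 21 classes, all higher (0.372%, against 1.28% of the tests of all genes). This count was 16 with DESeq2, 25 with the Gm42418 covariate (24 of them higher), 14 without the 3 mice high in Gm42418 and 23 without 3xTg-AD/alcohol mouse 31. It was 0 without any 1 of 3xTg-AD/alcohol mice 4, 33 and 34, 3xTg-AD/air mouse 13 and WT/alcohol mouse 18, and 1 to 9 without any 1 of the other mice. The shares of all genes called under these alternatives are not given here, so a change in the count cannot be read as particular to the family. The 21 classes and subclasses share nuclei and mice, the sum of all nuclei being 1 of them. The member median was above 0 in all 21, though only 2 members passed the filter in Sncg neurons and 5 each in endothelial and vascular leptomeningeal cells. It was, for example, 0.11 in GABAergic neurons, 0.14 in astrocytes (74 genes past the filter) and 0.23 in microglia (57 genes past the filter). In all nuclei it stayed between 0.12 and 0.21 over 27 alternatives. It went below 0 under at least 1 alternative in microglia (-0.04 to 0.26), precursors (-0.03 to 0.20), vascular leptomeningeal cells (-0.12 to 0.42), Lamp5 neurons (-0.35 to 0.22) and Vip neurons (-0.0060 to 0.19). Of the large subunit members 48 of 51 lay above 0 in all nuclei, and of the small subunit members 20 of 26, with medians of 0.17 and 0.11. In GABAergic neurons these counts were 41 of 51 and 13 of 26.

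In WT mice the summed level in all nuclei was 2969, 3320, 3477 and 3632 CPM in controls and 3899, 3922, 3842 and 4092 in mice exposed to alcohol. These groups did not overlap. It was 2927, 3605, 3996 and 3671 in 3xTg-AD/air mice and 4046, 3347, 4259 and 3351 in 3xTg-AD/alcohol mice, which did overlap. In microglia, WT controls were at 3404 to 4499 and WT/alcohol mice at 4529 to 5209. In nuclei without a class they were at 3827 to 4791 and at 5269 to 5657. Among the other classes plotted by group, these WT groups did not overlap in glutamatergic and GABAergic neurons. They overlapped in astrocytes, oligodendrocytes and precursors. Several other quantities moved along with these levels. The share of nuclei without a class was 27.1 to 34.1% in WT controls and 30.1 to 40.8% in WT/alcohol mice. Of the 3xTg-AD/alcohol mice, 31 and 34 had the lowest summed levels, the lowest shares of nuclei without a class (24.9 and 19.9%, against 32.0 and 44.2%) and the greatest depth (medians of 1925.5 and 2175 UMIs per nucleus, against 1625 and 1367). The lowest summed values of both genotypes in air, controls 26 and 27 and 3xTg-AD/air 12, belonged to the 3 mice high in Gm42418. Without these 3 mice the member median for alcohol was 0.13 in all nuclei and 0.11 in glutamatergic neurons, and from named nuclei alone (chosen after seeing the data) it was 0.13 in all nuclei. Gm42418 itself was lower with alcohol (-1.93, SE 0.50, adjusted p = 0.049, edgeR, all nuclei). How far each of these contributed was not tested.

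The members called for alcohol were Mrpl23, Mrpl54 and Mrpl57, all of the large subunit. DESeq2 called 8 members and edgeR without 3xTg-AD/alcohol mouse 31 called 13, small subunit members such as Mrps24, Mrps26 and Mrps34 among them in both. For these settings the shares of all genes called are not given here. Mrpl23, which in bacteria lies at the exit of the peptide tunnel, was at 67.4 to 79.8 scaled CPM (median 71.2) in the 8 mice in air and at 73.2 to 97.0 (median 88.3) in the 8 mice exposed to alcohol in all nuclei. It was higher by 0.28 (log2, SE 0.07, adjusted p = 0.038, edgeR, where 3.3% of all genes were called). Mrpl54 in glutamatergic neurons was at 14.8 to 21.5 (median 18.1) in air and 20.3 to 27.2 (median 22.9) with alcohol, higher by 0.35 (SE 0.09, adjusted p = 0.048, 2.99% of all genes called). Mrpl57 in L2/3 IT neurons was at 42.6 to 57.1 in air and 56.5 to 79.8 with alcohol, higher by 0.37 (adjusted p = 0.036, 1.99% of all genes called), and Mrpl23 rose there by 0.36 (adjusted p = 0.038). In each of these the groups touched or overlapped at their edges. The calls were close to the threshold. That of Mrpl23 in all nuclei was lost when any 1 of 10 mice was left out (3xTg-AD/alcohol 4, 33 and 34, WT/alcohol 7, 17 and 18, 3xTg-AD/air 12 and 13, and controls 26 and 28; adjusted p at most 0.098), while its difference stayed between 0.25 and 0.32. That of Mrpl54 was lost under 19 of 25 alternatives, with a difference of 0.31 to 0.40 when single mice were left out and 0.25 without the 3 mice high in Gm42418 (adjusted p = 0.12), and those in L2/3 IT neurons under 13 of 25 each. Mrps9, of the small subunit, had the lowest value in all nuclei (-0.22, adjusted p = 0.12), followed by Mrpl33 (-0.13) and Mrpl3 (-0.12), and Mrpl17, Mrpl54 and Mrpl22 the highest (0.34 each), none of which passed the test.

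Neither single-factor comparison with WT controls gave a call, and neither did the interaction. For 3xTg-AD/air mice versus WT controls edgeR called 0 of 1074 member tests (83 at an unadjusted p under 0.05), against 0.241% of the tests of all genes, and DESeq2 called 2. For WT/alcohol mice versus WT controls edgeR called 0 (119 unadjusted), against 0.0332% of the tests of all genes, and DESeq2 also called 0. Between 3xTg-AD/alcohol and 3xTg-AD/air mice it called 0 (69 unadjusted), against 0.237%, and DESeq2 0. The interaction of genotype and alcohol gave 0 calls (41 unadjusted; DESeq2 0), against 0.00313%, and 15 of 78 members lay above 0 in all nuclei with a median of -0.13.

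Other nuclear genes of mitochondrial translation lay on both sides of 0 with alcohol. In all nuclei 6 of 12 translation factors, 7 of 17 aminoacyl-tRNA synthetases, 10 of 16 assembly factors and 3 of 5 ribosomal proteins with other symbols lay above 0, with medians of -0.00, -0.03, 0.04 and 0.02, and none of these was called there. Lrpprc, which stabilizes mitochondrial mRNAs, fell by 0.34 (log2, SE 0.07, adjusted p = 0.022, edgeR) in all nuclei and by 0.38 (SE 0.09, adjusted p = 0.026) in glutamatergic neurons, and 1 of 8 genes of mitochondrial RNA stability and transcription lay above 0. Gadd45gip1, a large subunit protein with another symbol, rose by 0.71 in astrocytes (SE 0.19, adjusted p = 0.0496). The 13 mitochondrially encoded mRNAs, which the ribosome translates, had a median of -0.02 with 6 above 0, and of these mt-Co1 was called higher in L5 ET neurons (0.40, adjusted p = 0.049) and mt-Atp8 lower in Sst neurons (-0.78, adjusted p = 0.029). In contrast 80 of 83 cytosolic ribosomal protein genes and 78 of 82 nuclear-encoded respiratory chain genes lay above 0, with medians of 0.19 and 0.17, close to that of the mitochondrial ribosomal protein genes. Of these, Rpl10, Rps2, Rps4x, Rpl35 and Cox5a were called with alcohol in all nuclei or in 1 of the 6 classes plotted by group, or in several, and Rpl29 and Rps25 for genotype, each higher. For genotype the medians in all nuclei were 0.07 for translation factors (9 of 12 above 0), -0.03 for synthetases, 0.07 for assembly factors (14 of 16), 0.03 for RNA stability, 0.06 for the ribosomal proteins with other symbols, -0.12 for the mitochondrially encoded mRNAs (1 of 13), -0.06 for cytosolic ribosomal proteins (19 of 83) and -0.04 for the respiratory chain (23 of 82). Mtrf1l, a mitochondrial release factor, was called in 3xTg-AD/alcohol mice versus WT controls in all nuclei (0.45, adjusted p = 0.045). Lars2, the mitochondrial leucyl-tRNA synthetase, was at -2.21 there (SE 0.63, adjusted p = 0.065), with 1236 to 2232 CPM in the 3 mice high in Gm42418 and 223 to 402 in the others. AY036118, like Gm42418 a transcript resembling ribosomal RNA, was called lower in the same comparison in 18 of the 21 classes (-0.67 to -0.95). The WT controls of that comparison include mice 26 and 27, both high in Gm42418, and values without them are not given here.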

How the data were processed

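Counts summarised here came from nuclei of prefrontal cortex, captured with 10x 3′ v3.1 chemistry. The authors made UMI counts per gene and nucleus with Cell Ranger 6.1.1 and STAR on mm10, per the labels and methods, and deposited raw counts. Their Azimuth cell assignments were not used here, so class names were rebuilt. The members, gene lists and several alternatives were chosen with earlier results of these data known.

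Counts were scaled to 10000 per nucleus, and 2000 variable genes without the members gave 30 principal components, 20 neighbours and Leiden clusters (resolution 1.5, GABAergic 1.0; scikit-learn 1.9.0, python-igraph 0.11.9). Glutamatergic clusters needed a log2 fold of Slc17a7 above -0.3 and of Gad1 below -0.5 against the other nuclei. GABAergic clusters needed Gad1 above 0.3 and Slc17a7 below -0.5. Other classes and the subclasses needed at least 3 raised markers, and the Meis2-like cluster was named by its origin. No doublet caller was run. Raw counts were summed per mouse and class (at least 10 nuclei) and compared by edgeR 4.0.16 (R 4.3.3; robust quasi-likelihood after filterByExpr and TMM), 1 fit over all groups, with Benjamini-Hochberg adjustment over all genes of a class. Scaled CPM (UMIs per 1000000) use TMM factors within a class. Summed levels use total UMIs and got no test. Python 3.11.15, numpy 2.4.6, scipy 1.17.1, pandas 2.3.3 and matplotlib 3.10.9 were used otherwise. Scripts were tested on simulated data.

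Alternatives were DESeq2 1.42.0, limma 3.58.1 (class differences), DESeq2 size factors, library size alone, no filter, a stricter nucleus filter (at least 500 genes, at most 5 percent mitochondrial UMIs; 113008 nuclei), classes from marker counts, covariates (Gm42418, mitochondrial percent), leaving out each mouse, and leaving out 3 mice. Named nuclei only and leaving out the Meis2-like nuclei (both for the sum of all nuclei), and library size alone for class differences, were added after seeing the data. Named genes were called members, the 5 highest and 5 lowest members per averaged contrast in all nuclei, the 5 with most UMIs, the 3 highest and lowest class differences, Mrpl33, called genes of other lists and Lars2. Genes were located on GRCm38 (GENCODE M21).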

Additional observations from a re-analysis of the deposited data

Results flagged for a closer look

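Among 238 groups of 4 mice looked at over named members and summed levels, 10 (4.20%) held a mouse far from the other 3 by Dixon's criterion, where chance alone gives about 5%. In all nuclei, WT control 28 had 29.2 scaled CPM of Mrps12 against 58.4 to 63.8 in the other controls. Control 27 had 29.2 of Mrpl55 against 24.3 to 24.9. WT/alcohol mouse 18 had 70.5 of Mrpl11 against 62.1 to 63.2 and 37.9 of Mrpl54 against 34.5 to 34.8, and 3xTg-AD/air mouse 21 had 30.4 of Mrps22 against 29.2 to 29.4. In glutamatergic neurons, control 26 had 16.97 of Mrpl55 against 18.3 to 18.6. In GABAergic neurons, 3xTg-AD/alcohol mouse 31 had 49.2 of Mrpl33 against 62.9 to 64.8. Control 26 had a summed level of 3321 CPM in GABAergic neurons against 3562 to 3585. In astrocytes, 3xTg-AD/air mouse 12 had 34.8 of Mrps12 against 24.2 to 24.9. In oligodendrocyte precursors, 3xTg-AD/air mouse 14 had 0 of Mrps12 against 30.3 to 36.2.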

How the results depend on the processing

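No paired analysis was possible because the groups share no mouse numbers. The number of member tests called over all classes moved with the processing. For 3xTg-AD/alcohol mice against WT controls (8 calls) it was 3 with library size alone, 13 without the filter, 5 with classes from marker counts, 15 with the mitochondrial percent covariate, 5 without the 3 mice high in Gm42418, and 3 to 12 leaving out 1 mouse. These calls also turned. In the main fit 7 of the 8 were lower (Mrpl33), whereas without the 3 mice all 5 were higher (Mrpl15, Mrpl23 and Mrps5). With the Gm42418 covariate all 7 were higher, none of them Mrpl33. Without 3xTg-AD/alcohol mouse 31, 9 of 11 were higher, and with DESeq2 7 of 12. Without 3xTg-AD/alcohol mouse 34, 2 of 3 were higher, and without WT control 26, 3 of 6. For 3xTg-AD/air mice against WT controls (0) it was 2 with DESeq2, 3 without the filter and 0 to 5 leaving out 1 mouse (5 without control 28). For 3xTg-AD/alcohol against 3xTg-AD/air mice (0) it was 1 without the filter, 15 with the Gm42418 covariate and 1 without the 3 mice. For 3xTg-AD versus WT mice, both exposed to alcohol (1), it was 3 with DESeq2, 0 with library size alone, 0 with marker counts, 2 with the Gm42418 covariate, 3 with the mitochondrial percent covariate, 2 without the 3 mice and 0 to 2 leaving out 1 mouse. For genotype (16) it was 7 with marker counts, 9 without the 3 mice and 7 to 18 leaving out 1 mouse (7 without 3xTg-AD/air 13, 8 without 3xTg-AD/air 21, 10 without control 26). For alcohol (4) it was 16 with DESeq2, 1 with library size alone, 1 with marker counts, 25 with the Gm42418 covariate, 1 with the mitochondrial percent covariate, 14 without the 3 mice, and 0 to 23 leaving out 1 mouse (23 without 3xTg-AD/alcohol mouse 31). From named nuclei only, calls in all nuclei were 3 for 3xTg-AD/alcohol mice against WT controls, 1 for both genotypes exposed to alcohol, 3 for alcohol and 3 for genotype. Without the Meis2-like nuclei they were 1, 0, 1 and 3. Mrpl3 in all nuclei changed sign for alcohol with the Gm42418 covariate (0.0022). The causes were not tested. Shares of all genes called under each alternative are not given here, so these counts cannot be read as particular to the family.

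Summed levels moved with classes from marker counts in astrocytes (alcohol 4499, 3xTg-AD 4008, 3xTg-AD with alcohol 4225) and microglia (alcohol 5231, 3xTg-AD with alcohol 4990). Fewer members in the sum, past the filter, gave 2983, 3413, 3140 and 3340 in oligodendrocytes and 2914, 3300, 2971 and 3219 in precursors (WT controls, WT with alcohol, 3xTg-AD, 3xTg-AD with alcohol), and in microglia 3503 (WT controls), 4361 (WT with alcohol) and 4135 (3xTg-AD with alcohol). Class differences with classes from marker counts gave 13 higher and 4 lower of 55 members in GABAergic neurons (28.4 and 28.5% of all genes), 16 higher in precursors (24.9%) and 13 higher in endothelial cells (21.4%). Library size alone gave 4 lower in GABAergic neurons (20.7% of all genes), 44 higher and 3 lower in precursors (45.6 and 22.3%), 2 lower in microglia (25.5%) and 5 lower in endothelial cells (29.4%). UMIs per class limit what could be detected, since only 44 to 57 members passed the filter in glia other than astrocytes.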

Other observations

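Genes within 1000000 bases of the members called by genotype were also looked at. In all nuclei, where 3.28% of genes were called, 5 of 57 neighbours of Mrps12 were called (8.77%), with Gmfg higher by 1.08 (log2) and Lgals4 and Sipa1l3 lower, at -1.19 and -0.68. Of the neighbours of Mrpl33 2 of 42 were called (4.76%), of Mrps5 1 of 22 (4.55%) and of Mrpl55 0 of 43 by edgeR (7 at an unadjusted p under 0.05). In glutamatergic neurons, where 3.08% of genes were called, the counts were 2 of 53 for Mrps12, 3 of 40 for Mrpl33, 0 of 22 for Mrps5 (2 at an unadjusted p under 0.05) and 1 of 40 for Mrpl55. Of all genes 16.2% reached an unadjusted p under 0.05 for genotype in all nuclei (edgeR), and 15.7% in glutamatergic neurons. The 4 shallow unnamed clusters, 34416 nuclei with median depths of 759 to 1290 UMIs, held 4686 to 6029 CPM of the family.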
